A study of Mus musculus with 4 samples.

Results

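Mir-486 and mir-3107 are 2 annotated miRNA hairpins that lie on opposite strands of one piece of mouse chromosome 8, and they were followed here through the small RNAs of fetal liver. Their reads were the sequenced fragments that matched either hairpin without mismatch, together with fragments of which all but the last 1 to 3 nt matched. Reads of this kind numbered 48821 and 27682 in the Ago2 CD libraries 1 and 2, of 21875540 and 15238066 reads in all. In the wildtype libraries 1 and 2 they numbered 31151 and 30695, of 15841697 and 13138065 reads. They comprised 132 distinct sequences without mismatch and 672 with an unmatched end, and the 2 hairpins are among 2202 in the annotation.

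Ago2 CD denotes livers with a catalytic dead Ago2, and the controls were wildtype livers, with 2 libraries of each genotype. The series' design text calls the libraries of a genotype biological replicates. On fetal age, the exact allele, zygosity and pooling of animals nothing is given in the sources used here. No other allele or treatment is named for either genotype.

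A miRNA is released from its hairpin as a duplex of a guide strand, which stays in an Argonaute protein, and a passenger strand, which is usually lost. Ago2 is the Argonaute best known for cutting an RNA that pairs with its guide, and when a duplex is paired throughout its middle that RNA can be the passenger strand itself. The guide miR-486-5p is abundant in red cell precursors and in muscle, and its hairpin lies within Ank1, the gene of the red cell membrane protein ankyrin. Fetal liver is the organ where red cells form before birth. The question put to these libraries was what the strands and ends of this duplex look like when Ago2 cannot cut.

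The reads that the results turn on are shown first, because the strands of the duplex are almost complements of each other and the ends decide what can be said. They are copied from the deposited libraries, run 5′ to 3′ and carry T for U. Capitals mark the seed, bases 2 to 8, which largely sets which targets a miRNA pairs with.
miR-486-5p, 22 nt: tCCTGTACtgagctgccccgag
miR-486-5p, 21 nt: tCCTGTACtgagctgccccga
miR-486-3p, 20 nt: cGGGGCAGctcagtacagga
miR-486-3p, 21 nt: cGGGGCAGctcagtacaggat
miR-486-3p, 22 nt: cGGGGCAGctcagtacaggatg

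In the annotation (GENCODE vM21, build GRCm38) Mir486 (ENSMUSG00000070084.3) spans chr8:23142555-23142682 on the plus strand, 128 nt, and Mir3107 (ENSMUSG00000106471.1) spans chr8:23142573-23142662 on the minus strand, 90 nt. Both lie in an intron of Ank1 (chr8:22974844-23150497, plus strand), 834 nt after one exon and 5598 nt before the next, within 15 of the 17 annotated Ank1 transcripts. No exon of another gene overlaps them, and the antisense gene Gm15816 (minus strand) covers the same intron. The 22 nt read of the 5p arm covers chr8:23142587-23142608 and the 21 nt read of the 3p arm chr8:23142629-23142649. Because the arms are nearly self-complementary, the hairpins of both strands contain the same 22 nt stretch on each arm, and a read inside it fits either hairpin.

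Both arms were first counted from untailed reads of 18 to 27 nt, with the hairpins merged. MiR-486-3p, the passenger strand, had 15617 and 7856 reads in the Ago2 CD libraries 1 and 2, against 106 and 228 reads in the wildtype libraries 1 and 2. As CPM, counts scaled by TMM to a common library size, it averaged 805 ± 29.9 CPM in Ago2 CD and 21.8 ± 5.65 CPM in wildtype (SD, n = 2 each). It thus rose 36.9-fold (log2 fold change 5.21, SE 0.37, edgeR quasi-likelihood test, two-sided, Benjamini-Hochberg adjusted p = 0.0311). Of the 584 arms tested, 0.342% were called, 0.171% higher in Ago2 CD and 0.171% lower, and in 15.9% both mutant libraries lay above both wildtype libraries, as they did here. Within the libraries whose longest read was 46 nt and 50 nt, each 1 of either genotype, the log2 fold change was 4.92 and 5.53. Without wildtype library 1, Ago2 CD library 1 or Ago2 CD library 2 the call was lost (log2 fold changes of 5.001, 5.26 and 5.18, edgeR adjusted p of 0.0649, 0.143 and 0.322).

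MiR-486-5p, the guide, had 10831 and 6109 reads in the Ago2 CD libraries, against 12999 and 14749 reads in the wildtype libraries. It averaged 593 ± 69.9 CPM in Ago2 CD and 1922 ± 362 CPM in wildtype (SD, n = 2 each). Both mutant libraries lay below both wildtype libraries, as they did for 14% of all arms tested. The log2 fold change was -1.70 (SE 0.30) and did not pass (edgeR adjusted p = 0.517). It passed in DESeq2 (adjusted p = 0.0231), without a filter in edgeR (adjusted p = 0.0330) and with read length as a term in edgeR (adjusted p = 0.000158), and did not with arm reads as library size (log2 fold change -0.94, edgeR adjusted p = 0.464), with tailed reads added (-1.30, adjusted p = 0.999) or with the replicate block (-1.69, adjusted p = 1.00). In such bulk tissue, fewer cells that make a miRNA and less of it per cell cannot be told apart.

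**Figure D1:**
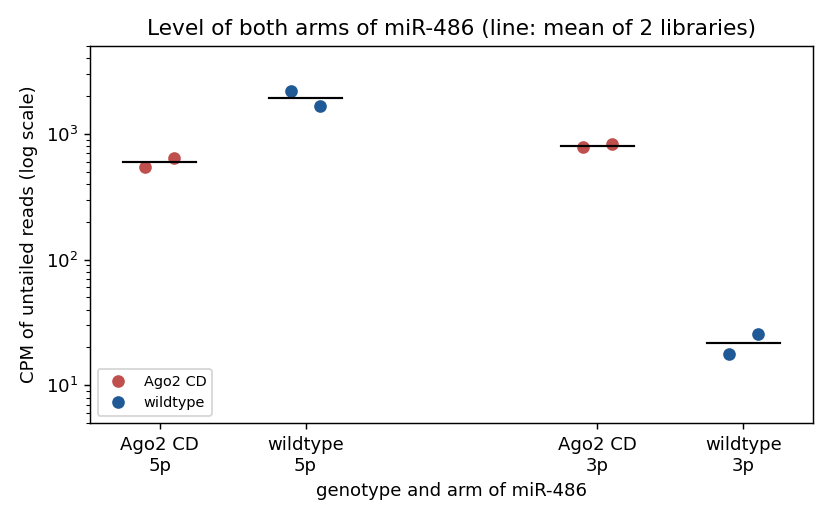
Level of both arms of miR-486 as TMM-scaled CPM of untailed reads (log axis), with 1 point per library and a line at the mean of the 2 libraries of a genotype. The 3p arm sits at 784 and 826 CPM in Ago2 CD, above the 17.8 and 25.7 CPM of wildtype, and the 5p arm at 543 and 642 CPM in Ago2 CD, below the 2178 and 1666 CPM of wildtype.

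Within the hairpin the balance of strands turned over among untailed reads. The 3p arm made up 59.0% (95% exact Clopper-Pearson interval 58.5% to 59.6%) and 56.3% (55.4% to 57.1%) of the untailed reads in the Ago2 CD libraries, against 0.809% (0.663% to 0.977%) and 1.52% (1.33% to 1.73%) in the wildtype libraries. With tailed reads added the shares were 36.4% and 32.8% in Ago2 CD and 0.499% and 1.23% in wildtype, since tails were commoner on the 5p arm. Counted so, the 5p strand stayed the more frequent in every library. On the log2 scale the ratio of 3p over 5p reads rose by 6.92 (SE 0.56, limma adjusted p = 0.00970). This test called 0.704% of 284 hairpins, and 14.8% had a 3p share above both wildtype libraries in both mutant libraries. Leaving out any single library ended the call, with an adjusted p of 0.0565 to 0.553 in limma. The 3p strand outnumbered the 5p strand among untailed reads in both mutant libraries and in neither wildtype library.

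The deposited counts also show which read sequences carried the change. Of the 132 sequences without mismatch, 32 passed the filter on low counts, 10 of the 3p arm and 22 of the 5p arm. In the fit over 5762 hairpin reads edgeR called 0%, with 168 sequences at an unadjusted p under 0.05, and DESeq2 called 142. The 21 nt read of the 3p arm was the most frequent one in both mutant libraries, with 8669 and 4989 reads in Ago2 CD against 12 and 41 in wildtype. Its log2 fold change was 7.17 (SE 0.88, edgeR adjusted p = 0.304, DESeq2 adjusted p = 6.75e-14). The 20 nt read of that arm had 1782 and 1476 reads in Ago2 CD against 33 and 13 in wildtype (log2 fold change 5.13, SE 1.07). The 22 nt read had 2305 and 313 reads in Ago2 CD against 44 and 107 in wildtype (log2 fold change 2.93, SE 0.94). All of these 3 reads were thus more frequent in both mutant libraries, though by different amounts, and the genotypes overlapped for none of them. Of all sequences tested, 9.46% lay above both wildtype libraries in both mutant libraries and 8.4% below.

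On the guide strand the 22 nt read had 3704 and 1270 reads in Ago2 CD against 5415 and 8172 in wildtype (log2 fold change -2.52, SE 0.55, edgeR adjusted p = 0.715, DESeq2 adjusted p = 0.00768). The read that ends 1 base earlier had 5464 and 2676 reads in Ago2 CD against 3351 and 4400 in wildtype (log2 fold change -0.93, SE 0.50). The 21 nt read was therefore the more frequent of the pair in both mutant libraries and the less frequent in both wildtype libraries. The 20 nt read had 539 and 260 copies in Ago2 CD against 587 and 660 in wildtype (log2 fold change -1.67, SE 0.54, edgeR adjusted p = 1.00). Reads of 18 nt went with read length instead: that of the 5p arm had 120 and 421 copies in Ago2 CD and 640 and 184 in wildtype, and that of the 3p arm 1304 and 9 in Ago2 CD and 0 and 40 in wildtype.

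To read the 3′ ends without the added bases, tailed reads were placed by the length of their templated part, counted from the main 5′ end of the arm. Templated 5p reads ended at base 21 in 43.4% and 50.4% of reads in Ago2 CD, against 16.8% and 19.9% in wildtype. They ended at base 22 in 51.7% and 36.4% in Ago2 CD, against 68.3% and 75.1% in wildtype. Averaged over the genotype, 44.0% ± 10.8 of Ago2 CD reads and 71.7% ± 4.75 of wildtype reads had the longer end (SD, n = 2 each).

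The ends of the 3p strand were read in the same way. Templated 3p reads ended at base 21 in 61.1% and 76.9% in Ago2 CD, against 16.2% and 15.5% in wildtype, and at base 22 in 15.4% and 4.18% in Ago2 CD, against 56.3% and 66.2% in wildtype. The wildtype shares rest on 142 and 328 reads, which gives 95% exact intervals for the longer end of 47.8% to 64.6% and 60.8% to 71.3%. The genotypes did not overlap in the share of either end on either arm, but the shares of an arm depend on each other. How often such end shares separate the genotypes over all arms was not counted. As a mean, templated 3p reads measured 20.71 and 20.83 nt in Ago2 CD and 21.36 and 21.23 nt in wildtype, a difference of -0.52 nt (SE 0.10, limma adjusted p = 1.00), which passed with read length as a term (adjusted p = 0.0224). Templated 5p reads measured 21.46 and 21.31 nt in Ago2 CD and 21.68 and 21.69 nt in wildtype, a difference of -0.30 nt (SE 0.096, limma adjusted p = 1.00). This measure was added after the data were seen: limma called 0 of 352 arms, with 6 below 0.05 before adjustment, and 7.1% of arms had both mutant libraries below both wildtype libraries. Untailed reads alone measured 21.26 and 21.17 nt on the 5p arm in Ago2 CD and 21.46 and 21.51 nt in wildtype (difference -0.27 nt, SE 0.10, limma adjusted p = 0.999), in a test that called 0% of 329 arms, with 3 below 0.05 before adjustment. Untailed 3p reads measured 20.70 and 20.84 nt in Ago2 CD and 21.15 and 20.84 nt in wildtype (difference -0.23 nt, SE 0.16, limma adjusted p = 0.999), so Ago2 CD library 2 and wildtype library 2 were all but equal there.

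**Figure D2:**
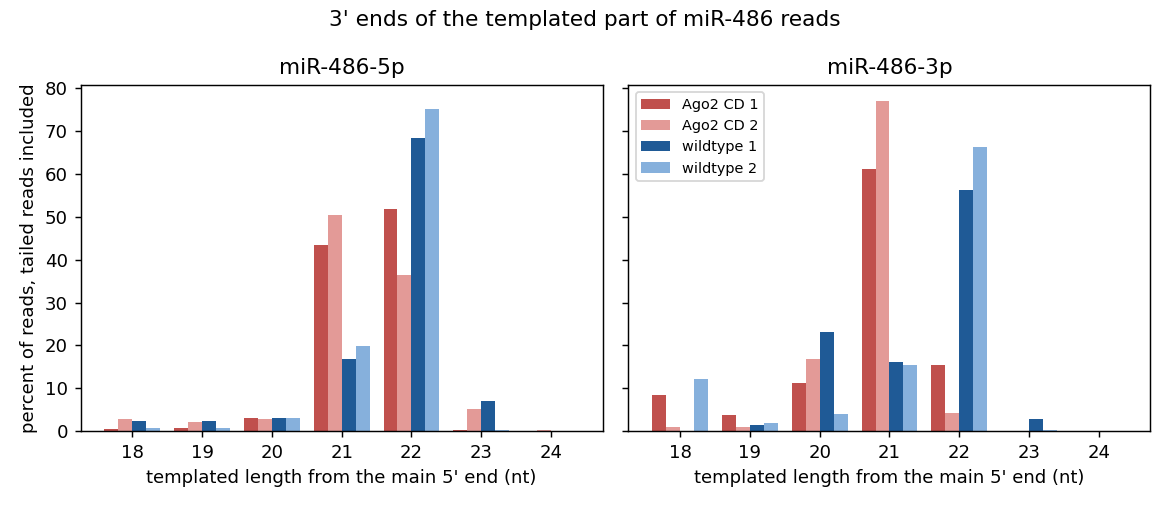
Percent of reads by length of the templated part, for reads at the main 5′ end with tailed reads included, with 1 bar per library. Ago2 CD libraries peak at 21 nt on the 3p arm (61.1% and 76.9%) where wildtype libraries peak at 22 nt (56.3% and 66.2%), and on the 5p arm the 21 nt end holds 43.4% and 50.4% in Ago2 CD against 16.8% and 19.9% in wildtype.

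Untemplated tails, bases that enzymes add to a 3′ end, were found on both strands. These tailed reads show the added base in capitals.
miR-486-5p, 22 nt and uridine: tcctgtactgagctgccccgagT
miR-486-5p, 22 nt and adenosine: tcctgtactgagctgccccgagA
miR-486-5p, 21 nt and adenosine: tcctgtactgagctgccccgaA
miR-486-5p, 21 nt and uridine: tcctgtactgagctgccccgaT
miR-486-3p, 21 nt and uridine: cggggcagctcagtacaggatT
miR-486-3p, 22 nt and uridine: cggggcagctcagtacaggatgT

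MiR-486-5p was heavily tailed. A tail was carried by 64.04% and 66.8% of its reads in Ago2 CD and by 57.7% and 50.1% in wildtype, where all arms together had 8.73% and 22.1% in Ago2 CD and 16.9% and 6.83% in wildtype. The log2 change of the tailed to untailed ratio was 0.69 (SE 0.45, limma adjusted p = 0.999), and in 2.62% of arms both mutant libraries were above both wildtype libraries, as here. Tails of 1 nt other than C were on 47.998% and 40.9% of 5p reads in Ago2 CD and 44.9% and 42.03% in wildtype, so the genotypes overlapped there. That measure leaves out longer tails as well as C tails. A single C tail was on 2.59% and 9.60% of 5p reads in Ago2 CD, against 1.77% and 0.291% in wildtype. The log2 change of its ratio to untailed reads was 3.20 (SE 1.43, limma unadjusted p = 0.104). Reads that match mir-3107 through a last C are not among these tails, nor in the tailed share. On the 5p arm they numbered 35 and 897 in Ago2 CD and 2112 and 37 in wildtype. Counted as tails, they would lift wildtype library 1 above Ago2 CD library 1, and the genotypes would overlap in the tailed share of this arm. On the 3p arm 9.35% and 12.5% of reads were tailed in Ago2 CD, against 31.2% and 38.2% in wildtype, the largest change in size of 382 arms tested (log2 change -2.13, SE 0.47, limma adjusted p = 0.999). Limma called 0% of these arms, with 1 below 0.05 before adjustment, and with read length as a term the 3p arm had an adjusted p of 0.114. Its share was below both wildtype libraries in both mutant libraries, as in 5.76% of arms, and 1 nt tails other than C were on 8.17% and 10.3% of its reads in Ago2 CD, against 24.03% and 30.9% in wildtype. Its reads that match mir-3107 through a last C, 27 and 843 in Ago2 CD and 2 and 0 in wildtype, count as untailed. Counted as tails, they would raise the share of Ago2 CD library 2 and make the change of the 3p arm smaller.

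Over the whole arm, a single adenosine was found on 19.96% and 16.03% of 5p reads in Ago2 CD, against 11.5% and 10.99% in wildtype (log2 change of its ratio to untailed reads 1.08, SE 0.47), and on 0.290% and 0.167% of 3p reads in Ago2 CD, against 2.60% and 4.07% in wildtype (log2 change -4.41, SE 0.59). Limma called 0% of 1528 pairs of arm and base, with 16 below 0.05 before adjustment.

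Tail shares were then split by where the templated part ended. On 5p reads cut to 21 templated bases, adenosine had been added to 23.3% and 19.7% in Ago2 CD, against 5.22% and 4.39% in wildtype, and uridine to 15.7% and 17.2% in Ago2 CD, against 5.90% and 4.13% in wildtype. On 5p reads of 22 templated bases, uridine had been added to 39.2% and 43.4% in Ago2 CD and to 47.0% and 39.1% in wildtype, so the genotypes overlapped there. Adenosine on that end stood at 19.1% and 16.3% in Ago2 CD and at 15.5% and 13.3% in wildtype. The read of 21 nt and an added adenosine accordingly had 2801 and 1701 copies in Ago2 CD, against 264 and 235 in wildtype, while that of 22 nt and an added uridine had 5613 and 2710 copies in Ago2 CD, against 9677 and 7903 in wildtype.

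On the 3p strand, reads of 22 templated bases had an added uridine in 5.90% and 11.4% in Ago2 CD, of 2490 and 367 reads, against 32.5% and 36.4% in wildtype, of 80 and 217 reads. At 21 templated bases the uridine share was 10.99% and 12.3% in Ago2 CD and 21.7% and 19.6% in wildtype, where it rests on 23 and 51 reads. The lower tailed share of this arm in the mutant was thus seen at either end. Base 21 of the 3p strand is a T in the mir-486 hairpin, so a uridine added after base 20 reads as templated and was counted so. With 2 libraries per genotype an exact two-sided permutation test cannot give a p below 0.333, so shares by end are described without a test.

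**Figure D3:**
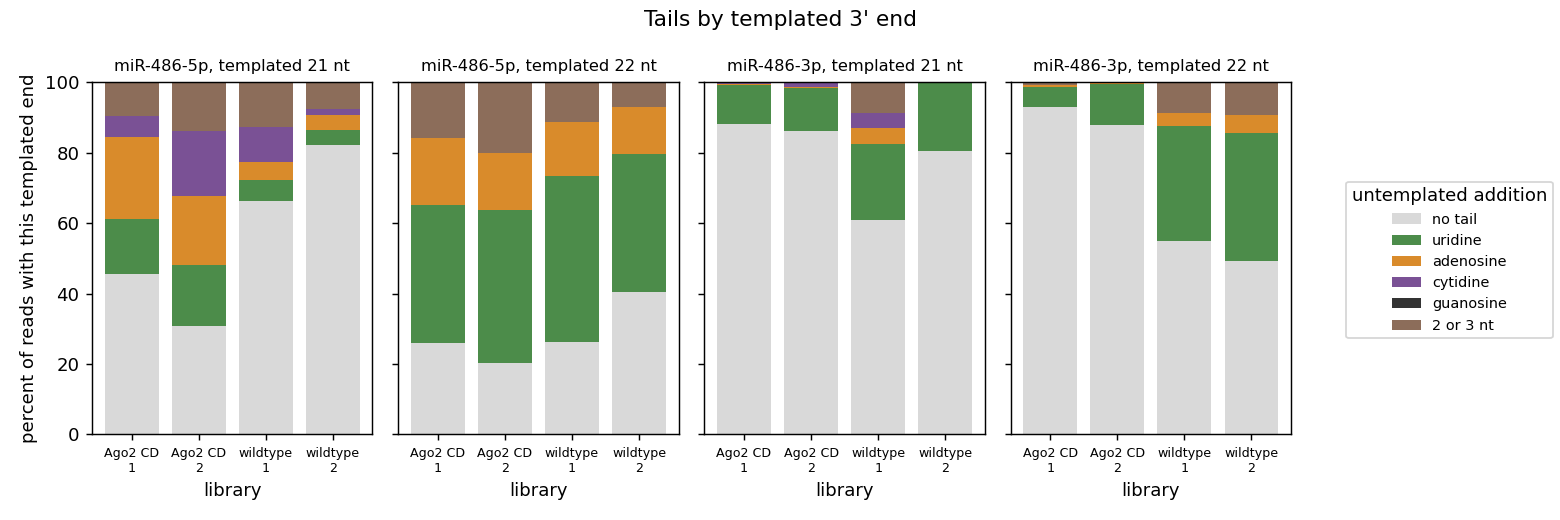
Percent of reads of each templated end that carried no tail, 1 added base of each kind, or 2 or 3 added bases, per library. On 5p reads of 21 templated bases the untailed part is 45.4% and 30.9% in Ago2 CD against 66.3% and 82.2% in wildtype, and on 3p reads of 22 bases it is 92.9% and 88.0% in Ago2 CD against 55.0% and 49.3% in wildtype, while a cytidine after base 22 of either arm matches a hairpin and is not a tail here.

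The antisense hairpin was then sought in reads that fit mir-3107 alone. Capitals mark the bases past the stretch that both hairpins share.
mir-486 alone, 5p: tcctgtactgagctgccccgagGT
mir-3107 alone, 5p: tcctgtactgagctgccccgagC
mir-486 alone, 3p: cggggcagctcagtacaggaTG
mir-3107 alone, 3p: cggggcagctcagtacaggaC

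Most untailed 5p reads fitted either hairpin, 10595 and 5072 in Ago2 CD and 10791 and 14555 in wildtype. Reads of mir-486 alone numbered 170 and 124 in Ago2 CD and 91 and 109 in wildtype, and reads of mir-3107 alone 66 and 913 in Ago2 CD and 2117 and 85 in wildtype. These counts are not scaled to library size. Once scaled, the 5p reads of mir-486 alone overlapped between the genotypes. On the 3p arm mir-486 alone accounted for 11759 and 5400 reads in Ago2 CD and 62 and 162 in wildtype, and mir-3107 alone for 34 and 853 in Ago2 CD and 2 and 0 in wildtype. The 21 nt 3p read, with 8669 and 4989 copies in Ago2 CD and 12 and 41 in wildtype, fits mir-486 alone only through its last T. A uridine added to a read of either hairpin would give the same sequence, and its part was not tested. On the 5p arm the reads of mir-3107 alone were frequent in Ago2 CD library 2 and wildtype library 1, the libraries with reads of up to 50 nt, and the genotypes overlapped. On the 3p arm wildtype had few reads of any kind. Reads of mir-3107 alone were 0.218% and 10.9% of the untailed 3p reads in Ago2 CD and 1.89% and 0% in wildtype. The genotypes thus overlapped in that share too.

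Many of these reads match mir-3107 through a last C. Such reads numbered 35 and 897 on the 5p arm in Ago2 CD and 2112 and 37 in wildtype, which leaves 31 and 16 other 5p reads of mir-3107 alone in Ago2 CD and 5 and 48 in wildtype. Of those others, 30 in Ago2 CD library 1 and 43 in wildtype library 2 had 1 base before the shared stretch. Directly before the whole stretch, the A of mir-3107 was found on 11 and 0 reads in Ago2 CD and 0 and 30 in wildtype. Bases that fit neither hairpin were found there as well. A C was on 5 and 8 reads in Ago2 CD and 33 and 14 in wildtype, and a U on 5 and 0 in Ago2 CD and 0 and 8 in wildtype. On the 3p arm, reads with a last C numbered 27 and 843 in Ago2 CD and 2 and 0 in wildtype. The 5p read shown had 33 and 844 copies in Ago2 CD and 2068 and 32 in wildtype. In the same libraries a lone C tail, which matches no hairpin, was found on 0.149% and 16.3% of the reads of all arms in Ago2 CD and on 12.8% and 0.126% in wildtype, so a C at the end moves with the library in other miRNAs as well. Its part in the mir-3107 reads was not tested. Reads with at least 2 bases past the shared stretch numbered 8 and 26 for mir-3107 in Ago2 CD and 5 and 5 in wildtype, from 6 distinct sequences. For mir-486 the same measure gave 2650 and 445 reads in Ago2 CD and 114 and 175 in wildtype, from 39 sequences. Reads placed on 1 strand by 2 or more bases thus came mostly from mir-486 in every library.

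**Figure D4:**
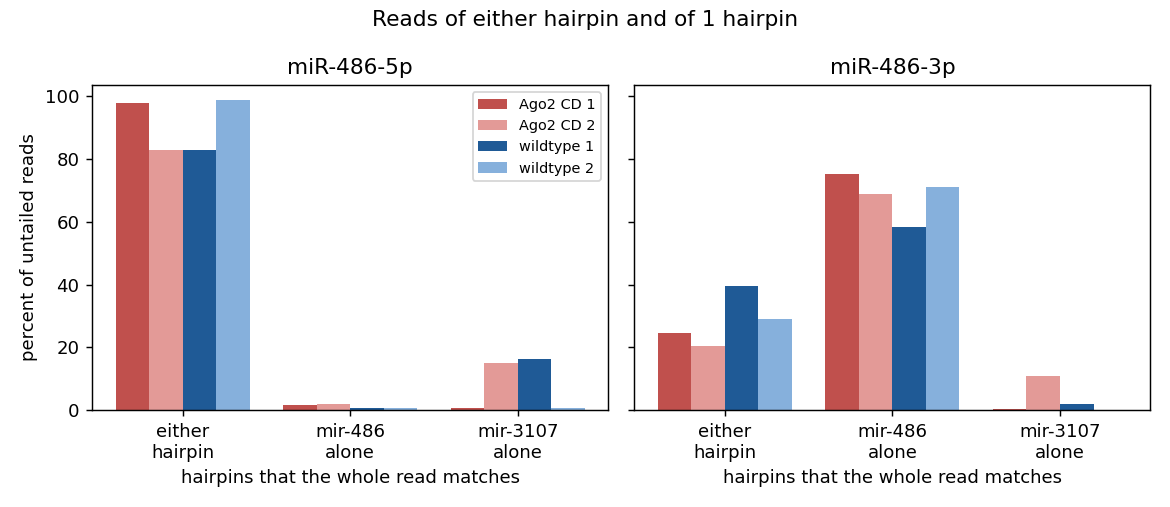
Percent of untailed reads of each arm that fit either hairpin, mir-486 alone or mir-3107 alone, with 1 bar per library. On the 5p arm mir-3107 alone holds 14.9% in Ago2 CD library 2 and 16.3% in wildtype library 1, and 0.609% in Ago2 CD library 1 and 0.576% in wildtype library 2, so the bars pair by read length and not by genotype.

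The 5′ ends set the seed, and most reads of either strand began at one base. Of the untailed 5p reads, 92.8% and 94.7% began at the main 5′ end in Ago2 CD, and 98.2% and 92.3% in wildtype (log2 change of main to other ends -0.75, SE 0.87, limma adjusted p = 0.999). Of 3p reads, 93.7% and 97.9% began at the main end in Ago2 CD, and 91.5% and 90.4% in wildtype (log2 change 1.43, SE 0.68, limma adjusted p = 0.999). The test called 0% of 357 arms, with 8 at an unadjusted p under 0.05. The genotypes overlapped on the 5p arm and did not on the 3p arm, where 6.16% of all arms had both mutant libraries above both wildtype libraries.

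Minor 5′ ends gave other seeds, again marked by capitals.
miR-486-5p, from base 3: cTGTACTGagctgccccgaggt
This read of mir-486 alone had 85 and 84 copies in Ago2 CD against 31 and 13 in wildtype (log2 fold change 0.98, SE 0.91, edgeR adjusted p = 1.00). Scaled to CPM, this read stood at 4.27 and 8.83 in Ago2 CD and at 5.19 and 1.47 in wildtype, so the genotypes overlapped. Untailed arm reads from that base numbered 179 and 179 in Ago2 CD and 104 and 85 in wildtype. With tailed reads added they numbered 356 and 571 in Ago2 CD and 253 and 183 in wildtype. These counts from that base are not scaled to library size, so no direction is drawn from them. Untailed arm reads from base 5 of the guide were seen at 287 and 1 in Ago2 CD and at 5 and 658 in wildtype. These were frequent in the libraries whose longest read was 46 nt, 1 of each genotype, and near absent from the others.

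The duplex was examined for pairing, since cutting by Argonaute needs pairing around the cut. In the hairpin folded with RNAfold (-80.3 kcal/mol) each of the 22 bases of the guide was paired, with no G-U pair among the first 18. Guide bases 10 and 11, opposite which Argonaute proteins cut, were paired with bases 11 and 10 of the 3p read. Pieces from such a cut would have 10 and 11 nt, below the 16 nt of the shortest deposited read, and were not analysed here.

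In 93 other hairpins with a tested ratio the bases 9 to 12 of the major arm were all paired. Limma called 1 of these 93 (1.08%), mir-451a, with 4 below 0.05 before adjustment, the minor arm was higher in 46, and the median log2 change of the minor to major ratio was -0.01. All 18 of the first bases of the major arm were also paired in 8 other hairpins, of 271 with a tested ratio. Limma called 0 of these 8, with 1 below 0.05 before adjustment, against 0.738% of all, and their log2 changes of the minor to major arm ratio were -0.64 to 1.91, beside a median of -0.01 over all 271. The highest was mir-299a, whose 3p share was 33.8% and 45.5% in Ago2 CD and 16.1% and 13.6% in wildtype (SE of the change 0.53, limma adjusted p = 0.860). The 1 hairpin among them that likewise had no G-U pair, mir-374b, changed by 0.93 (SE 0.72, limma adjusted p = 0.995).

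**Figure D5:**
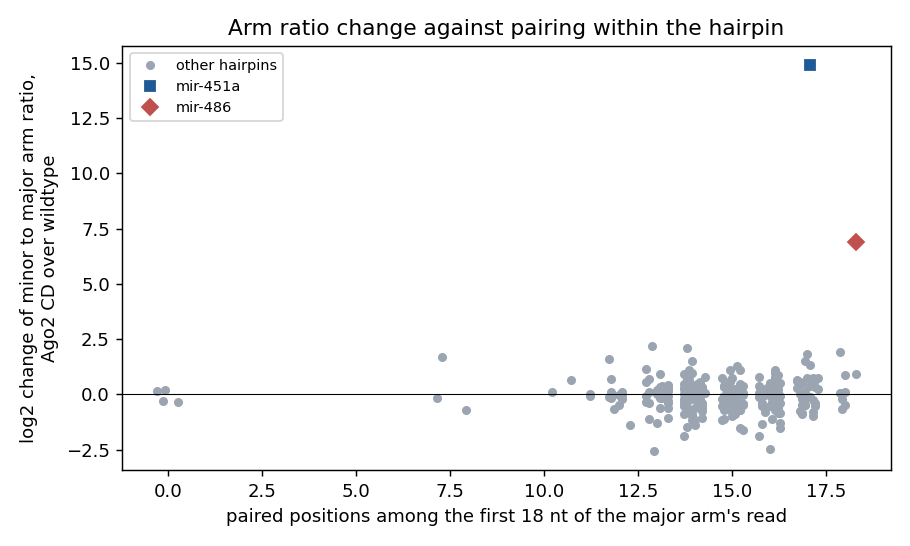
Log2 change of the minor to major arm ratio, Ago2 CD over wildtype, against the number of paired bases among the first 18 of the major arm's read, with 1 point per hairpin and points of equal x spread sideways. Mir-486 lies at 6.92 with 18 paired bases, the 8 other hairpins with 18 lie between -0.64 and 1.91, and mir-451a, which is cut by Ago2 in place of Dicer, is drawn as a square.

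Other miRNAs of red cells were read beside miR-486-5p. Of 9 listed erythroid arms 0 rose and 1 fell, miR-451a-5p, whose precursor Ago2 cuts, with 1203 and 965 CPM in Ago2 CD against 841681 and 415469 CPM in wildtype (log2 fold change -9.18, edgeR adjusted p = 0.0311), where 0.171% of all 584 arms were called higher and 0.171% lower. TMM rescales each library, so these CPM are not shares of its arm reads. As raw counts miR-451a-5p had 23969 and 9180 of 14423082 and 7814172 arm reads in Ago2 CD. In wildtype it had 5023742 and 3678886 of 9684900 and 9178725 arm reads. The median log2 fold change of the list was 0.37, beside 0.04 over all arms. MiR-144-3p, from the neighbouring hairpin of mir-451a, had 241895 and 326183 CPM in Ago2 CD and 277594 and 163307 CPM in wildtype, and the abundant miR-16-5p had 23198 and 22385 CPM in Ago2 CD and 28210 and 27283 CPM in wildtype. Neither passed (edgeR adjusted p of 0.996 each).

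Because miR-486 is also made in muscle, muscle miRNAs were read beside it. Of 5 listed arms edgeR called 0, with 1 below 0.05 before adjustment, where 0.342% of all 584 arms were called and 18 were below 0.05. Their median log2 fold change was -3.58, and their summed level was 777 and 333 CPM in Ago2 CD and 956 and 478 CPM in wildtype. In 4 of the 5 arms wildtype library 1 was the highest: miR-1a-3p had 6.72 and 12.4 CPM in Ago2 CD, against 212 and 16.4 CPM in wildtype, miR-133a-3p, merged with miR-133b-3p, 4.57 and 16.9 CPM in Ago2 CD, against 364 and 11.7 CPM in wildtype, and miR-206-3p 1.96 and 5.36 CPM in Ago2 CD, against 131 and 3.05 CPM in wildtype. MiR-208b-3p had 0.552 and 1.05 CPM in Ago2 CD, against 7.20 and 0.452 CPM in wildtype. MiR-499-5p, the most abundant of the list, was lowest in that library, with 763 and 297 CPM in Ago2 CD and 242 and 447 CPM in wildtype (log2 fold change 0.62, SE 0.60). The part of muscle RNA in the level of miR-486-5p was not tested. Markers of hepatocytes (miR-122-5p), leukocytes (miR-142-3p) and endothelium (miR-126a-3p) were present in every library, and none passed.

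The arms whose pattern over the 4 libraries was most like each strand were taken from 379 arms, by the distance between centred log2 CPM values. Nearest to miR-486-5p were miR-449a-5p (distance 0.57), miR-409-5p (0.69) and miR-434-5p (0.84). MiR-409-5p, for example, had 214 and 201 CPM in Ago2 CD and 506 and 364 CPM in wildtype, and none of the 3 passed (edgeR adjusted p of 0.996 each). Nearest to miR-486-3p was miR-451a-3p (distance 1.47), with 974 and 1856 CPM in Ago2 CD and 36.7 and 16.04 CPM in wildtype (log2 fold change 5.75, SE 0.68, edgeR adjusted p = 0.131). The next, miR-433-5p and miR-493-3p, were far off at 3.91 and 3.99.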

How the data were processed

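Small RNA reads from 4 fetal liver libraries were used as the authors deposited them, as raw counts of identical read sequences, with adapters removed by cutadapt per the submitters' processing notes. Trimming settings, aligner and build: not given in the sources used here. Reads had 16 to 46 nt (Ago2 CD 1, wildtype 2) or 16 to 50 nt (Ago2 CD 2, wildtype 1). Reads with an undetermined base (0.183% to 0.256%) were left out.

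Reads were matched to the 2202 hairpins of GENCODE vM21. Arm reads had 18 to 27 nt, lay on one side of the hairpin's midpoint, and numbered 14423082 and 7814172 in Ago2 CD and 9684900 and 9178725 in wildtype. Arms with the same first 18 nt were merged. Tailed reads matched with all but their last 1 to 3 nt. Counts per arm and per read sequence were tested with edgeR 4.0.16 (quasi-likelihood, TMM, filterByExpr), and ratios, tails, ends and lengths with limma 3.58.1 (pseudocount 0.5, at least 50 reads, or 20 for ratios), over all arms, two-sided, with Benjamini-Hochberg adjusted p under 0.05. SEs of edgeR values are the absolute log2 fold change over the square root of F. Alternatives included DESeq2 1.42.0. Intervals cover counting error within a single library only and not differences between libraries. Reads carried no molecular identifiers. RNAfold was version 2.7.2, R 4.3.3 and Python 3.11.15. The steps were tested on simulated data.

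Members, lists and tests were chosen with earlier results of these data known. Named reads were the 5 most frequent of each arm, the most frequent of each genotype and the 3 most frequent of each hairpin alone; tailed reads and minor ends were chosen after their values were seen.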

Additional observations from a re-analysis of the deposited data

How the results depend on the processing

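The direction of both arms of miR-486, of the arm ratio and of the mean templated lengths held under each alternative run. The count of arms called, 2 in edgeR with genotype alone, was 12 without a filter, 8 in DESeq2, 26 with read length as a term, 5 with read length and a minimum of 10 CPM in 2 libraries (chosen after seeing the data), and 0 to 4 on leaving out a library. Read sequences called, 0 in edgeR, were 165 without a filter, 142 in DESeq2 and 327 with read length. The fit with read length leaves 1 residual degree of freedom, and its p rests on the prior: adjusted p of miR-486-3p was 1.78e-06 with a prior of 6.96 degrees of freedom and 0.00262 with 3.21. Scaling to arm reads moved the median of all arms to 0.74 (log2), against 0.04 with TMM; the cause was not tested. Mean templated length with read length gave 3 calls. On leaving out a library the arm ratio gave 0 or 1 calls.

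The replicate numbers do not pair the libraries: deviations of same-numbered libraries had a correlation of -0.719 over 584 arms. The crossed pairing is the same fit as read length as a term and gave 26 calls. With the replicate block edgeR called 3 arms, miR-486-3p among them (log2 fold change 5.23, edgeR adjusted p = 1.64e-06), and limma 1 hairpin, the ratio of mir-486 not passing (adjusted p = 0.105).

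Directions that turned belong to values that did not pass, and the cause was not tested. Of log2 fold changes, the 20 nt read from base 4 of the guide that ends in the C of mir-3107 had -0.074 with the replicate block and ranged from -0.30 (without wildtype replicate 2) to 7.26 (without wildtype replicate 1) on leaving out a library. The 23 nt 5p read with that C ranged from -6.71 to 3.64 and the 18 nt 5p read from -3.41 to 0.27, both positive without wildtype replicate 1, and the 18 nt 3p read was -1.26 without Ago2 CD replicate 1. Of log2 changes of ratios, the 5′ end of the 5p arm ranged from -1.84 to 0.34, the U tail of the 5p arm from -0.046 to 0.30, and the C tail of the 3p arm from -1.60 to 0.23. With other tails of 1 nt as denominator the U tail changed by -0.96 on the 5p arm and 2.23 on the 3p arm, and with reads ending in the C of mir-3107 counted as tails the C tail of the 3p arm changed by 0.78.

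Depth limits the 3p arm in wildtype, with 106 and 228 untailed reads.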
